A study of Mus musculus with 9 samples.

Results

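Zfp36, Zfp36l1, Zfp36l2, Elavl1, Khsrp, Pum2, Tia1 and Tial1 encode RNA-binding proteins that recognise AU-rich elements or Pumilio sites in mRNAs. These 8 genes were taken by symbol from the 19938 named genes of the deposited array table and followed over all 9 arrays. Each had exactly 1 probe set (a group of probes that reads 1 transcript), and none of these probe sets was shared with another symbol. Of these, 7 passed the intensity filter (a mean log2 intensity of at least 7.385, or an intensity of 167.1, the 50th percentile of named probe sets) and were tested among 9864 genes. Zfp36, with a mean of 7.22, did not pass.

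The arrays held total RNA of C2C12, a mouse myoblast cell line. The cells had been given control siRNA, siRNA against Cugbp1 (current symbol Celf1, which binds GU-rich mRNA elements) or siRNA against Mbnl1 (a regulator of splicing and mRNA turnover in muscle). Actinomycin D, which blocks transcription, was given at 5 ug/ml in every group, and the arrays cover 0, 2.5 and 5 h of arrest. With no new transcription, a falling level reflects decay. Each siRNA and time had 1 array, which gave 3 arrays per siRNA, 3 per time and no replicate cultures. All cells were of the same line, and the labels name no difference between the groups other than siRNA and hours of arrest. The yardstick of every p-value is thus the scatter left once siRNA and time are fitted as separate effects, and precision is limited by having 9 arrays.

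AU-rich elements are stretches in the untranslated ends of many short-lived mRNAs, such as those of cytokines, early response genes and cell cycle regulators. Zfp36 family proteins and Khsrp bind them and bring in the enzymes that shorten the poly(A) tail and degrade the message, while Elavl1 (HuR) bound to the same elements protects it. Pum2 binds Pumilio sites and also recruits deadenylases, and Tia1 and Tial1 (TIAR) hold mRNAs back from translation and collect in stress granules. In myoblasts this balance acts on mRNAs of the myogenic programme, of which Elavl1 and Khsrp are known regulators.

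The library-wide checks were as follows. Median array intensities lay between 104.92 and 113.01, and any 2 arrays correlated at 0.98 to 0.995 across probe sets. Celf1 was at 21.6% to 30.9% of control under Cugbp1 siRNA, Mbnl1 at 15.9% to 22% under Mbnl1 siRNA, and Celf1 also at 61.5% to 72.4% under Mbnl1 siRNA. All 12 myoblast markers passed the intensity filter, with mean log2 levels of 8.02 to 13.09. Of 12 markers of other cell types (leukocytes, endothelium, fat and epithelium), 11 lay below the filter and the lysosomal macrophage marker Cd68 above it. RMA, the authors' normalization, gives arrays a common distribution, so every change below is relative to the other transcripts. When each array was shifted instead to the same median of 53 cytosolic ribosomal protein genes, the median change of all genes went from 0.04 to −0.19 at 5 h and from 0.03 to −0.08 at 2.5 h. This second scaling is named below where it ends or turns a call of one of the 8 genes, and counts of gene lists are given under both.

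The promoter sequences of the 2 Zfp36 family members in the RefSeq promoter table (GRCm38.p6) are shown first. Each runs 5′ to 3′ over the 250 bases before the annotated transcript start, and capitals mark the motifs found. The Zfp36 window lies at chr7:28379229-28379478 on the minus strand and the Zfp36l1 window at chr12:80113014-80113263, also on the minus strand.
Zfp36: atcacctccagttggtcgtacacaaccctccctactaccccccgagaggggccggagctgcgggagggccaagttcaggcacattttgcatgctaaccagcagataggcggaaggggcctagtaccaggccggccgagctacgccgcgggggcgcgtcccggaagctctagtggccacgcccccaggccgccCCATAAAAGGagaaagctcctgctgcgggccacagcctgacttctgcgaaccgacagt
Zfp36l1: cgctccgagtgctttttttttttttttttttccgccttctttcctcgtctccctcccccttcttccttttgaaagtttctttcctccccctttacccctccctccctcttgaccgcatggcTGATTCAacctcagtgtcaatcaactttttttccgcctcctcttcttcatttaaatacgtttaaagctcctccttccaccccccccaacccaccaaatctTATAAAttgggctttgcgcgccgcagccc
Zfp36 held a CArG box, the binding motif of serum response factor, as CCATAAAAGG from 58 to 49 bases before the start. Zfp36l1 held an AP-1 site (TGANTCA, here TGATTCA) from 129 to 123 bases and a TATA box (TATAAA) from 29 to 24 bases before the start. Both strands were searched, and the matches did not overlap. Among all 32851 promoter windows of the table, 1.47% held a CArG box, 6.75% the AP-1 site and 12.4% the TATA box. None of these motifs, nor the cyclic AMP response element (TGACGTCA, in 1.55% of all windows), matched in the windows of Elavl1, Khsrp, Pum2, Tia1 and Tial1, which says only that these letters are not in those 250 bases. Zfp36l2 was not matched in the table. A motif match is a description of the sequence and no evidence of binding, and its relation to the levels below was not tested.

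All 3 Zfp36 family mRNAs fell within 2.5 h of transcription arrest, to between 43.8% and 63.4% of their own 0 h level in each siRNA arm. Zfp36 was by then below the intensity filter, so its remaining share is uncertain. At 2.5 h 24.2% of all tested genes were called lower, and 31.8% with equal ribosomal protein medians. Pum2 fell more slowly. Elavl1, Khsrp, Tia1 and Tial1 stood slightly higher at 5 h than at 0 h relative to the other mRNAs. Of the 7 tested genes 4 were higher and 3 lower at 5 h (limma, adjusted p under 0.05), where 35.6% of all tested genes were higher and 32.8% lower. With equal ribosomal protein medians 0 were higher and the same 3, Zfp36l1, Zfp36l2 and Pum2, were lower, beside 2.37% and 55.5% of all genes. A call in either direction was common among all genes at 5 h.

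**Figure D1:**
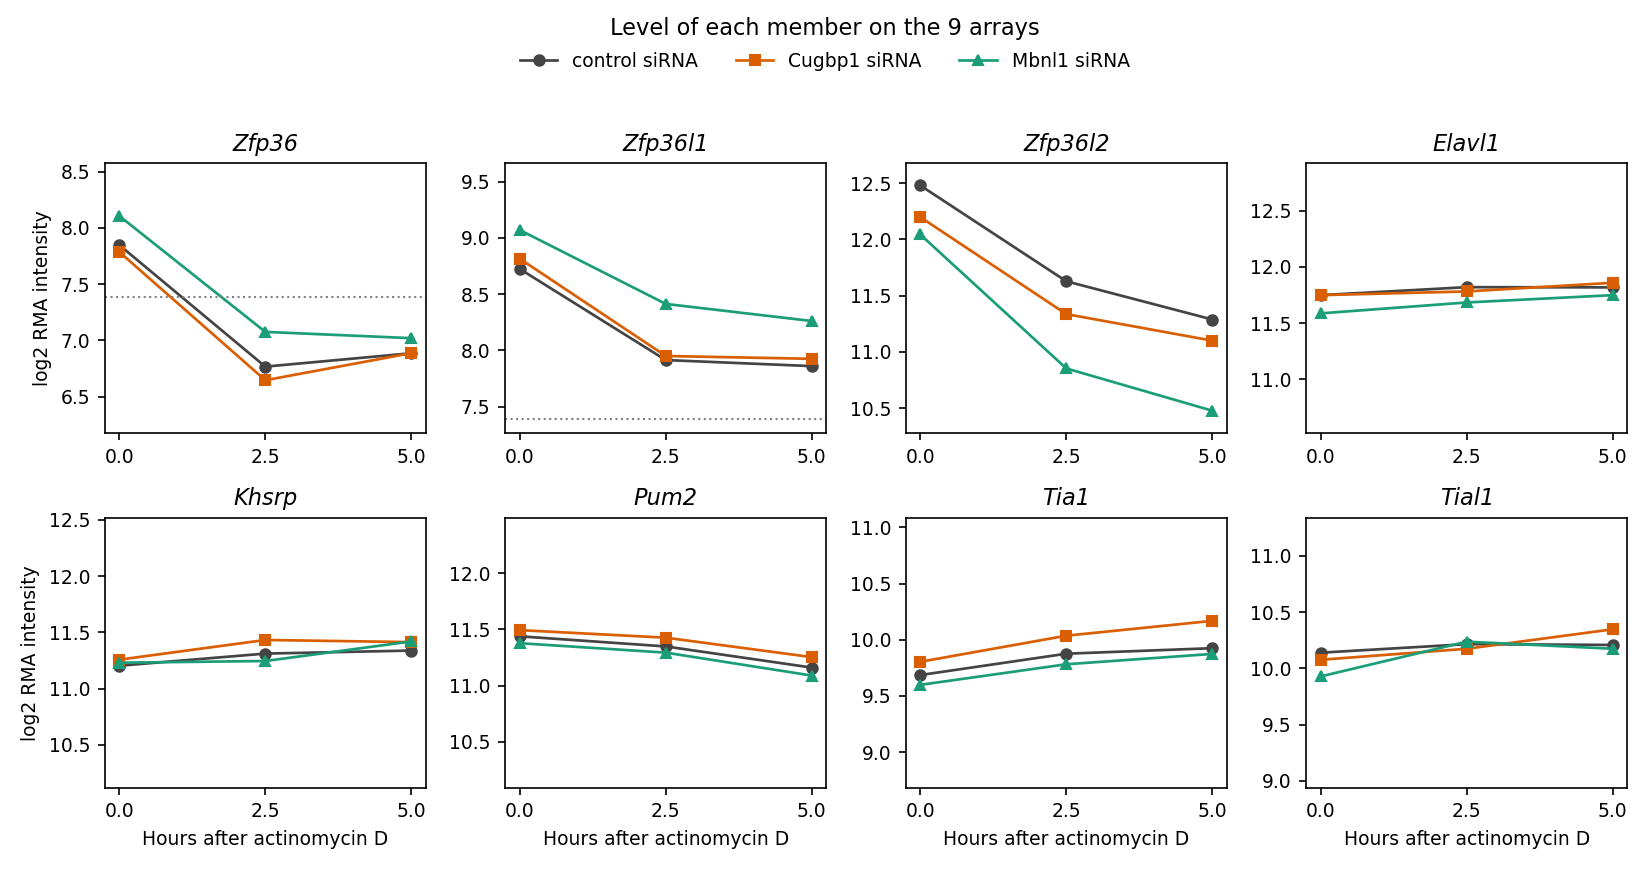
Log2 RMA intensity (y axis) of the 8 genes against hours after actinomycin D (x axis), 1 point per array, with lines joining the arrays of an siRNA; each panel spans its own range of levels and the dotted line marks the intensity filter at 7.385. The Zfp36 family lines drop between 0 and 2.5 h in all 3 arms, and the Zfp36l2 line of the Mbnl1 siRNA arm lies lowest throughout.

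Zfp36l2, a zinc finger protein that promotes the decay of AU-rich mRNAs, had the largest fall among the 7 tested members. Its intensity went from 5711.6 at 0 h to 3164.2 at 2.5 h and 2499.8 at 5 h with control siRNA. With Cugbp1 siRNA it went from 4700.7 to 2585.5 and 2194.3. With Mbnl1 siRNA it went from 4221.8 to 1849.7 and 1425. Every 0 h array was above every 2.5 h and 5 h array, while the 2.5 h and 5 h arrays overlapped. The log2 change was −0.97 ± 0.08 at 2.5 h (SE of the fit to all 9 arrays, n = 3 per time, limma adjusted p = 6.03e-05) and −1.29 ± 0.08 at 5 h (adjusted p = 5.45e-06), a 2.44-fold fall. The change lay below the 10th percentile of all tested genes at 5 h, which was −0.72.

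Zfp36l1, its close relative with the same zinc finger pair, was at 422.5, 241.1 and 232.1 at the 3 times with control siRNA. The values were 450.1, 247.1 and 242.8 with Cugbp1 siRNA, and 537.1, 340.6 and 306.6 with Mbnl1 siRNA. The 0 h arrays did not overlap with the later ones, and most of the fall had occurred by 2.5 h. At 2.5 h the log2 change was −0.78 ± 0.05 (limma adjusted p = 7.89e-06) and at 5 h −0.85 ± 0.05 (adjusted p = 1.83e-06), 1.81-fold lower than at 0 h.

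Zfp36, or tristetraprolin, the founding member of the family and itself an early response gene, was dimmer. It stood at 230.2, 108.8 and 118.2 with control siRNA, at 220.7, 100.1 and 118.3 with Cugbp1 siRNA and at 275.5, 134.9 and 129.7 with Mbnl1 siRNA. The 3 arrays at 0 h were above the filter intensity and all 6 later ones below it, so the later levels are the least certain among the 8 genes. In a fit without the filter, over 19938 genes, Zfp36 changed by −1.08 ± 0.06 at 2.5 h (limma adjusted p = 2.62e-05) and by −0.98 ± 0.06 at 5 h (adjusted p = 1.51e-05). In that fit 3 of the 8 genes were higher and 4 lower at 5 h, beside 21% and 17.3% of all genes. At 5 h it was at 51.4%, 53.6% and 47.1% of its own 0 h level in the control, Cugbp1 and Mbnl1 arms.

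Pum2, a Pumilio protein that represses mRNAs carrying its sites, fell by less and mostly later. Its intensities were 2774.5, 2606 and 2287.8 with control siRNA, 2881.3, 2751.6 and 2439.8 with Cugbp1 siRNA, and 2658.7, 2510 and 2178.3 with Mbnl1 siRNA. All 5 h arrays were below all earlier ones, and the 0 h and 2.5 h arrays overlapped. The change was −0.08 ± 0.03 at 2.5 h (limma adjusted p = 0.0785) and −0.27 ± 0.03 at 5 h (adjusted p = 0.000208), when 81.9% to 84.7% of the 0 h level was left. At 2.5 h the second scaling gave −0.19 with an adjusted p of 0.0247.

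The stress granule protein Tia1 had the largest rise among the 7 tested genes. It stood at 823.8, 939.9 and 971.9 with control siRNA, at 893.9, 1050.2 and 1150.1 with Cugbp1 siRNA and at 775.7, 880.2 and 938.4 with Mbnl1 siRNA. Within each arm the level was higher at each later time, and the 5 h arrays were all above the 0 h arrays. The change was 0.20 ± 0.04 at 2.5 h (limma adjusted p = 0.00375) and 0.29 ± 0.04 at 5 h (adjusted p = 0.00026), and neither passed with equal ribosomal protein medians (0.09, adjusted p = 0.322, and 0.06, adjusted p = 0.401).

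Its paralog Tial1 went from 1127.3 to 1188.7 and 1183 with control siRNA, from 1079.1 to 1155.4 and 1302.8 with Cugbp1 siRNA and from 974.1 to 1207 and 1155.4 with Mbnl1 siRNA. The 0 h arrays were the 3 lowest. The change at 5 h was 0.20 ± 0.06 (limma adjusted p = 0.0186), and −0.03 with the second scaling (adjusted p = 0.726).

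Elavl1, the stabilising AU-rich element binder, was nearly level over time. Its intensities were 3440.7, 3613.2 and 3608.3 with control siRNA, 3440.1, 3518.7 and 3711.7 with Cugbp1 siRNA and 3074.4, 3287 and 3438.9 with Mbnl1 siRNA. The 0 h and 5 h arrays overlapped narrowly, since the control array at 0 h was just above the Mbnl1 array at 5 h. The change at 5 h was 0.11 ± 0.04 (limma adjusted p = 0.0236), which turned to −0.11 with equal ribosomal protein medians (adjusted p = 0.123) and was not called without the intensity filter (adjusted p = 0.0664).

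Khsrp, a KH domain protein that promotes the decay of AU-rich mRNAs, had intensities of 2359.2, 2542.5 and 2590.5 with control siRNA. It was at 2448.3, 2764.3 and 2728.8 with Cugbp1 siRNA and at 2402.9, 2428.4 and 2739.6 with Mbnl1 siRNA. Its 5 h arrays were all above its 0 h arrays, and the change of 0.16 ± 0.05 (limma adjusted p = 0.0133) turned to −0.07 with the second scaling (adjusted p = 0.342).

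The 4 small rises at 5 h rest on few arrays. Of these calls 2 were lost without the Cugbp1 array at 0 h (Khsrp and Tial1), the Cugbp1 array at 5 h (Elavl1 and Tial1), the Mbnl1 array at 0 h (Elavl1 and Tial1) or the Mbnl1 array at 5 h (Elavl1 and Khsrp). The call of Tia1 and the 3 falls held without any single array.

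**Figure D2:**
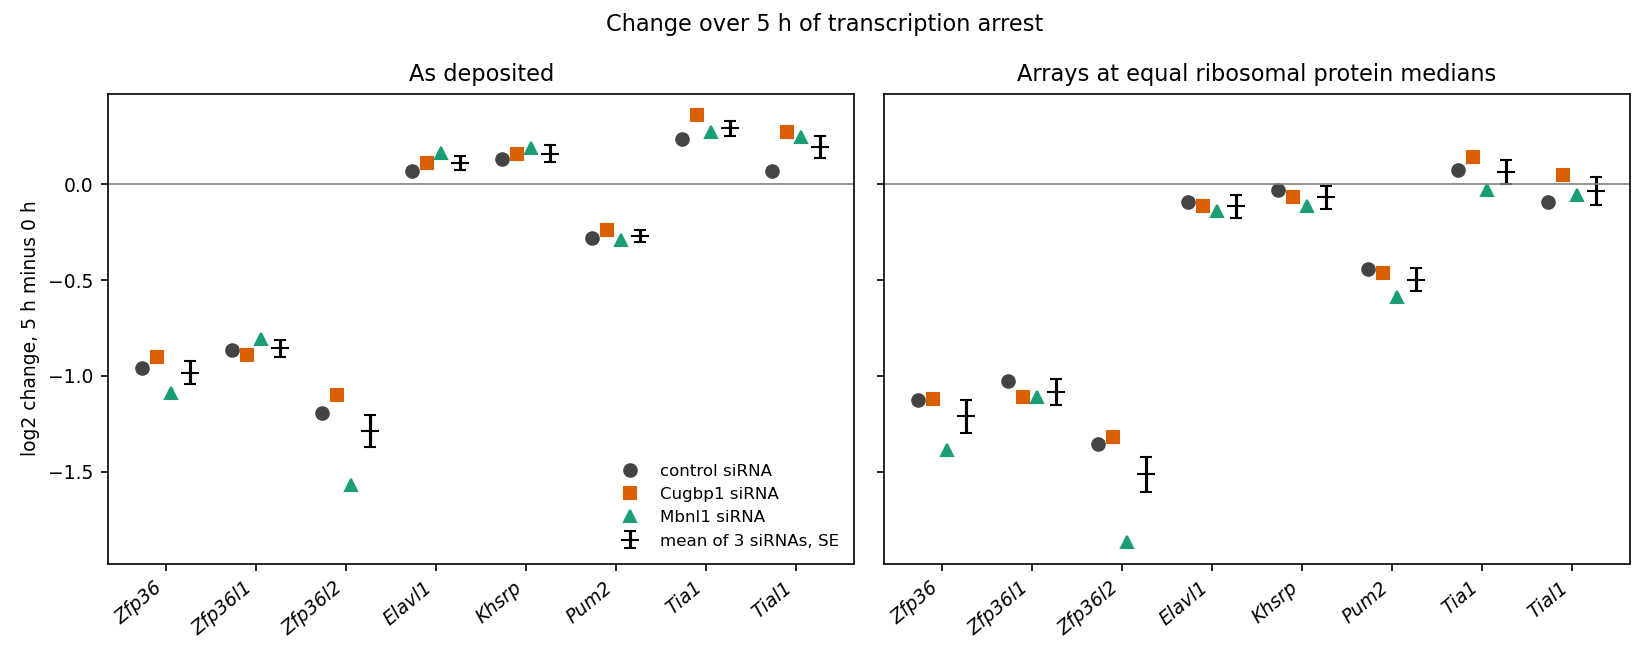
Log2 change from 0 to 5 h (y axis) of the 8 genes in each siRNA arm (coloured points, 1 pair of arrays each) with the fitted mean and its SE (black), as deposited on the left and with equal ribosomal protein medians on the right; the bar of Zfp36 is from the fit without the intensity filter. The Zfp36 family and Pum2 lie below 0 in both panels, while the fitted means of Elavl1, Khsrp and Tial1 pass from above to below 0.

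**Figure D3:**
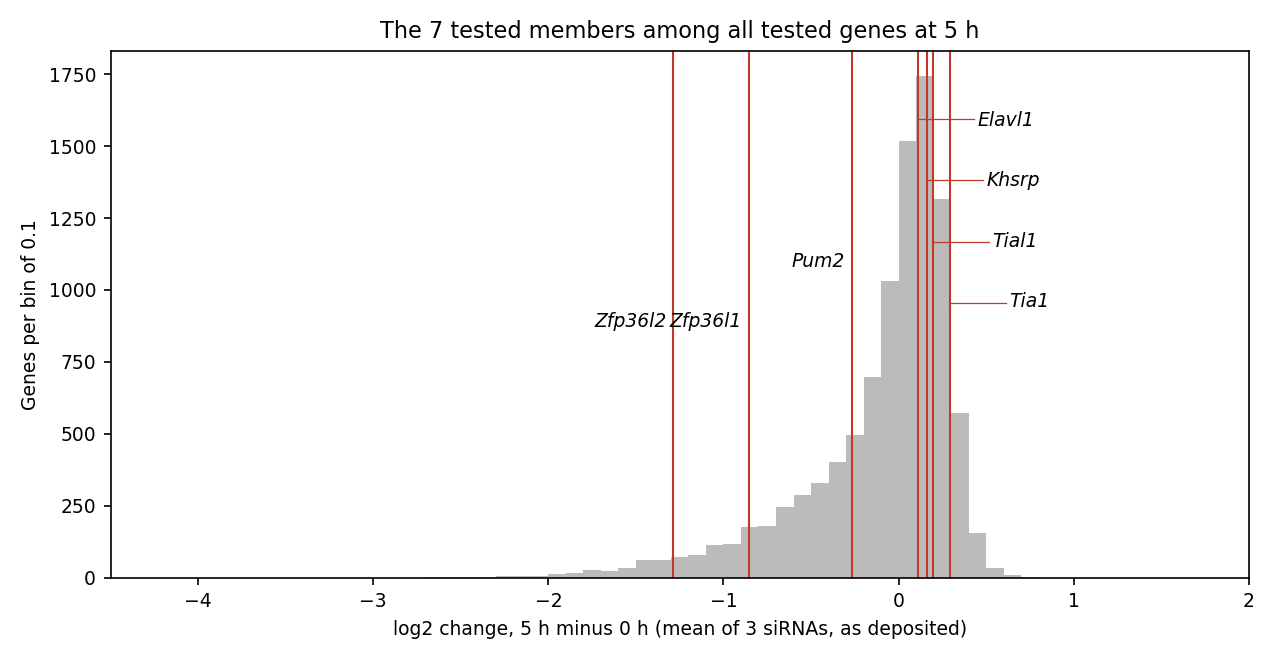
Number of tested genes (y axis, bins of 0.1) by log2 change from 0 to 5 h (x axis, mean of 3 siRNAs, as deposited), with red lines at the 7 tested genes. Zfp36l2 (−1.29) and Zfp36l1 (−0.85) lie in the tail of falling mRNAs, and Elavl1, Khsrp and Tial1 (0.11 to 0.20) lie in the main peak. Tia1 (0.29) lies on its upper side, with 91.4% of the tested genes at or below it.

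At 2.5 h against 0 h, 1 of the 7 tested genes was higher (Tia1) and 2 were lower (Zfp36l1 and Zfp36l2), beside 23.1% and 24.2% of all tested genes. With equal ribosomal protein medians 0 were higher and 3 lower, beside 1.49% and 31.8%, and without the filter, Zfp36 included, 1 was higher and 3 lower, beside 8.81% and 11.9%. From 2.5 to 5 h, 0 were higher and 2 lower, Zfp36l2 and Pum2, beside 4.47% and 17% of all tested genes. With equal ribosomal protein medians 0 were higher and 3 lower, beside 0.071% and 31.6%, and without the filter 0 were higher and 1 lower, beside 0.446% and 5.28%. Zfp36l2 changed by a further −0.32 ± 0.08 (limma adjusted p = 0.0308) and Pum2 −0.19 ± 0.03 (adjusted p = 0.00639). Zfp36l1 differed by −0.08 ± 0.05 between these times (adjusted p = 0.257) and was called with the second scaling (−0.19, adjusted p = 0.0429). Zfp36 differed by 0.10 ± 0.06 (adjusted p = 0.409 in the fit without the filter), and by −0.01 with the second scaling (adjusted p = 0.922). All its arrays at these times were below the intensity filter, so this difference cannot show whether its decay went on. The late call of Zfp36l2 was lost without the control array at 2.5 or 5 h, the Cugbp1 array at 2.5 h or the Mbnl1 array at 2.5 or 5 h (adjusted p up to 0.135), and without the intensity filter (0.0877).

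The level of these mRNAs under each knockdown was compared with control over the 3 times together. With no replicate cultures, a difference between cultures cannot be told apart from one between siRNAs. Under Mbnl1 siRNA 1 tested gene was higher (Zfp36l1) and 2 were lower (Zfp36l2 and Elavl1), beside 24% and 31% of all tested genes. Under Cugbp1 siRNA Tia1 alone among the 7 was higher and 0 were lower, beside 10.5% and 8.67% of all tested genes. With equal ribosomal protein medians 1 was higher and 1 lower under Mbnl1 siRNA, beside 20.1% and 25.4%, and 0 in either direction under Cugbp1 siRNA, beside 6.28% and 4.43%. Without the filter the counts were 2 and 1, beside 11.9% and 13.7%, and 0 in either direction, beside 2.57% and 2.29%. The calls of Elavl1 and Tia1 are those that were lost, and both were also lost without single arrays, as given with their values. Both comparisons share the control arrays.

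Zfp36l2 was at 73.9%, 58.5% and 57% of the control intensity at 0, 2.5 and 5 h under Mbnl1 siRNA, and at 82.3%, 81.7% and 87.8% under Cugbp1 siRNA. It was below control in every array of either knockdown, and lowest under Mbnl1 siRNA at each time. The log2 difference was −0.67 ± 0.08 under Mbnl1 siRNA (SE of the fit to all 9 arrays, limma adjusted p = 0.000289), 1.6-fold lower. Under Cugbp1 siRNA it was −0.25 ± 0.08 (adjusted p = 0.0709), which passed with the stricter filter (0.0406), with an intensity trend in the variance prior (0.0253), without the Mbnl1 array at 0 h (0.00657) or without that at 5 h (0.0446). The 2 knockdowns differed from each other by −0.42 ± 0.08, Mbnl1 minus Cugbp1 (adjusted p = 0.00319).

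Zfp36l1 moved the other way under Mbnl1 siRNA. It was at 127%, 141% and 132% of control at the 3 times, against 107%, 102% and 105% under Cugbp1 siRNA. The Mbnl1 array was the highest at every time. The difference was 0.42 ± 0.05 (limma adjusted p = 0.000152), 1.33-fold higher, and 0.06 ± 0.05 under Cugbp1 siRNA (adjusted p = 0.372). Mbnl1 minus Cugbp1 siRNA came to 0.35 ± 0.05 (adjusted p = 0.000354). Zfp36 was also above control in the 3 Mbnl1 arrays, by 0.23 ± 0.06 in the fit without the filter (adjusted p = 0.0232), and this was not called with the second scaling (0.24, adjusted p = 0.0683). Under Cugbp1 siRNA Zfp36 differed by −0.06 ± 0.06 (adjusted p = 0.675 in the same fit).

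**Figure D4:**
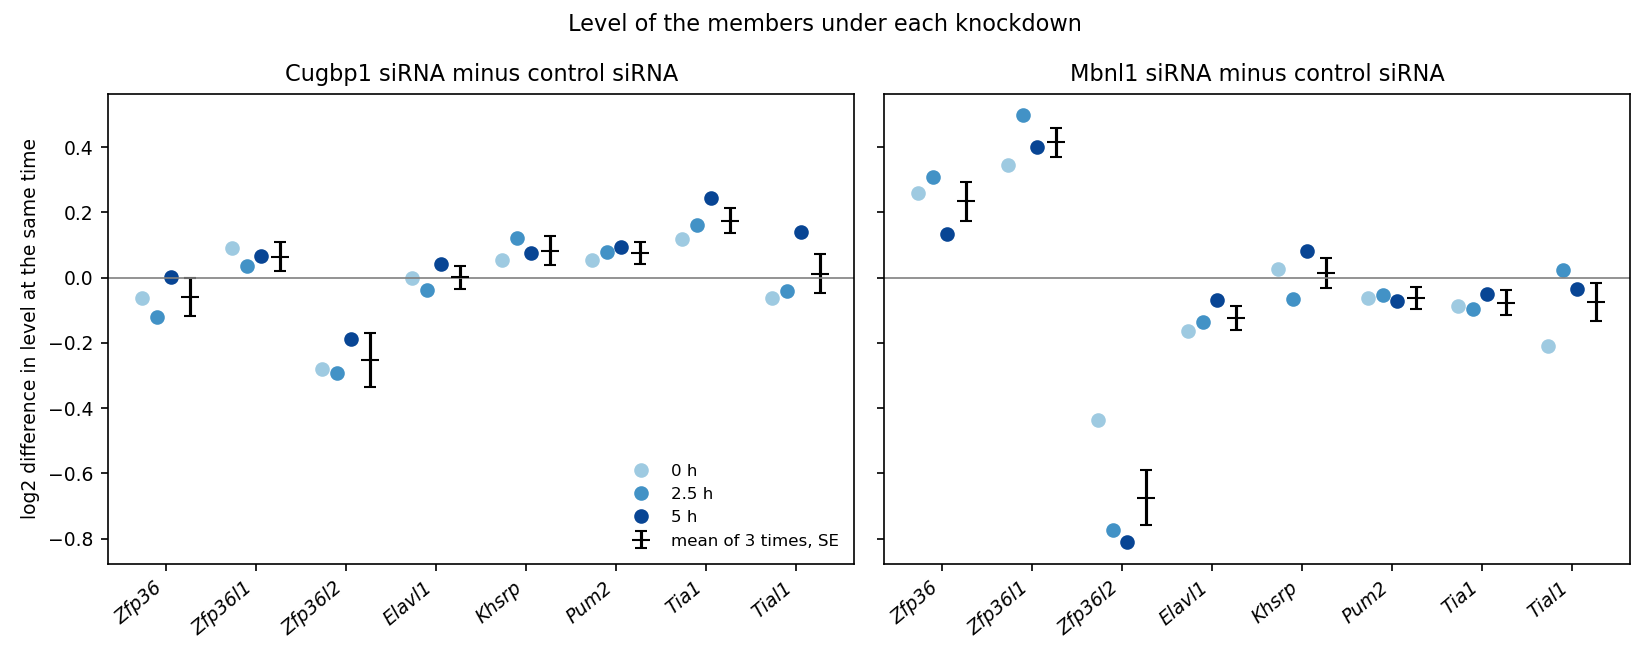
Log2 difference in level from control siRNA at the same time (y axis) for the 8 genes, under Cugbp1 siRNA on the left and Mbnl1 siRNA on the right; blue points are the 3 times and black bars the fitted mean with its SE (Zfp36 from the fit without the intensity filter). Under Mbnl1 siRNA all points of Zfp36l1 lie above 0 and all points of Zfp36l2 below it.

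Among the other genes, Tia1 was at 109%, 112% and 118% of control under Cugbp1 siRNA and at 94.2%, 93.6% and 96.6% under Mbnl1 siRNA. It was above control in all 3 arrays of the first and below it in all 3 of the second. Its difference under Cugbp1 siRNA was 0.17 ± 0.04 (limma adjusted p = 0.0173). This call was lost with equal ribosomal protein medians (0.18, adjusted p = 0.0735), without the filter (0.0683), and without the control or Cugbp1 array at 2.5 or 5 h (up to 0.082). Under Mbnl1 siRNA it was −0.08 ± 0.04 (adjusted p = 0.115), and Mbnl1 minus Cugbp1 siRNA gave −0.25 ± 0.04 (adjusted p = 0.000795).

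Elavl1 was at 89.4%, 91% and 95.3% of control under Mbnl1 siRNA, below it at each time. The difference was −0.12 ± 0.04 (limma adjusted p = 0.0211). The call was lost with equal ribosomal protein medians (adjusted p = 0.136), without the filter (0.0705), and without the control or Mbnl1 array at 0 or 2.5 h (up to 0.0967). Under Cugbp1 siRNA Elavl1 differed from control by less than 0.01 ± 0.04 (adjusted p = 0.992). Pum2 was at 104% to 107% of control under Cugbp1 siRNA and at 95.2% to 96.3% under Mbnl1 siRNA. Neither difference passed (0.08 ± 0.03, adjusted p = 0.156, and −0.06 ± 0.03, adjusted p = 0.146), while Mbnl1 minus Cugbp1 siRNA was −0.14 ± 0.03 (adjusted p = 0.00831, and 0.0698 with the second scaling). Khsrp and Tial1 passed in neither knockdown, with differences between −0.07 and 0.08.

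In the direct comparison of the knockdowns, 1 tested gene was higher (Zfp36l1) and 4 were lower (Zfp36l2, Tia1, Pum2 and Elavl1) under Mbnl1 than under Cugbp1 siRNA, beside 23% and 33.4% of all tested genes. With equal ribosomal protein medians 1 was higher (Zfp36l1) and 2 lower (Zfp36l2 and Tia1), beside 18% and 28.8%, and without the filter 2 were higher (Zfp36 and Zfp36l1) and 3 lower, beside 11.7% and 15.1%. The call of Elavl1 was also lost without the Cugbp1 array at 0 or 5 h or the Mbnl1 array at 0 or 2.5 h (adjusted p up to 0.0765). Beside these level differences, Cd68 was higher under Mbnl1 siRNA by 1.15 ± 0.04 (limma adjusted p = 8.52e-07), with log2 levels of 9.5 to 9.83 against 8.37 to 8.63 in the control arrays. Under Cugbp1 siRNA, where Tia1 was called, Cd68 was higher by 0.24 ± 0.04 (limma adjusted p = 0.00383). Over the 3 siRNAs together Cd68 was higher at 5 h than at 0 h by 0.27 ± 0.04 (limma adjusted p = 0.000271). With the second scaling that change was 0.05 (adjusted p = 0.54). The log2 of the summed intensity of the 12 markers of other cell types was 10.4 to 10.66 under Mbnl1 siRNA. It was 10 to 10.13 under Cugbp1 siRNA and 9.89 to 10.07 under control siRNA. Cd68 is part of this sum and the only 1 of the 12 above the filter. A sum without Cd68 was not taken, so this one does not show a rise of the others. For the myoblast markers the log2 of the sum was 14.83 to 14.87, 14.91 to 14.97 and 14.93 to 14.94 under Mbnl1, Cugbp1 and control siRNA. Of the 12 myoblast markers 2 were higher and 4 lower under Mbnl1 siRNA, beside 24% and 31% of all tested genes. With the second scaling 1 was higher and 4 lower, beside 20.1% and 25.4%. The 2 largest called changes there were the adhesion gene Cdh15 at −0.58 ± 0.04 and the myogenic factor Myod1 at −0.58 ± 0.05. Under Cugbp1 siRNA 1 was higher (Cdh15, 0.28 ± 0.04) and 1 lower (Myf5, −0.17 ± 0.04), beside 10.5% and 8.67%. With the second scaling Cdh15 alone was called, beside 6.28% higher and 4.43% lower (Myf5, limma adjusted p = 0.123). At 5 h 2 were higher and 4 lower, beside 35.6% and 32.8%. The 2 largest called changes were Myf5 at −1.29 ± 0.04 and Myod1 at −0.85 ± 0.05. With the second scaling 0 were higher and 9 lower, beside 2.37% and 55.5%. In total RNA of a culture, fewer cells of a type and less RNA per cell cannot be told apart. The part of these markers in the differences of Zfp36l1, Zfp36l2, Elavl1 and Tia1 was not tested.

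The decay of an mRNA under a knockdown was compared with control as the difference in hourly slope. For Cugbp1 siRNA 0 of the 7 genes were higher and 0 lower, and 0 had an unadjusted limma p under 0.05, beside 0% of all tested genes called in either direction (0.0507% higher and 0.071% lower with equal ribosomal protein medians, again with 0 of the 7). Their slope differences lay between −0.005 and 0.04 log2 per h, with SEs of 0.016 to 0.026, and the fit has 2 residual degrees of freedom, so that the missing calls do not show that decay was alike. For Mbnl1 siRNA 0 were higher and 0 lower, beside 0% and 0.0203% of all tested genes, and 1 gene, Zfp36l2, had an unadjusted p under 0.05.

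At 5 h Zfp36l2 was at 33.8% of its 0 h level under Mbnl1 siRNA, at 43.8% with control siRNA and at 46.7% with Cugbp1 siRNA, and at 2.5 h it was at 43.8%, 55.4% and 55%. The Mbnl1 arm thus had the smallest remaining share at both times. Its slope differed from control by −0.075 ± 0.021 log2 per h (limma adjusted p = 0.202, unadjusted p = 0.0104). It was called with equal ribosomal protein medians (−0.10 ± 0.03 per h, adjusted p = 0.0499), where 2.97% of all genes were called lower, and with an intensity trend in the variance prior (adjusted p = 0.044). Leaving out single arrays moved the difference between −0.124 and −0.026 per h (adjusted p 0.0767 to 0.982), the smallest being without the Mbnl1 array at 0 h and −0.033 without the control array at 0 h. For the other tested members the Mbnl1 slope differences lay between −0.002 (Pum2) and 0.035 (Tial1) per h. Zfp36, whose levels after 0 h were below the filter, was at −0.025 ± 0.028 per h (limma adjusted p = 0.833 without the filter).

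**Figure D5:**
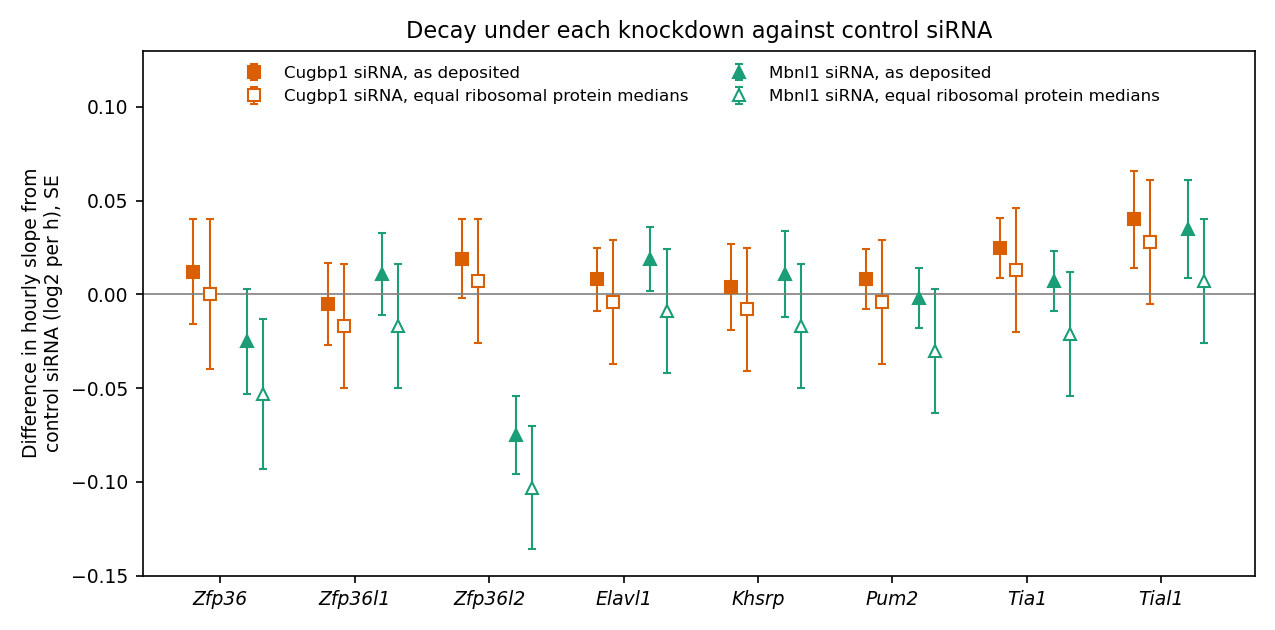
Difference in hourly slope from control siRNA (y axis, log2 per h, with SE) for the 8 genes under Cugbp1 (orange) and Mbnl1 (green) siRNA, as deposited (filled) and with equal ribosomal protein medians (open); Zfp36 is from the fit without the intensity filter. Zfp36l2 under Mbnl1 siRNA lies farthest from 0, at −0.075 and −0.10.

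The tested genes whose log2 levels followed each member most closely were found by Pearson correlation over the 9 arrays, which share their siRNAs and times. For Zfp36l1 they were Pgf (0.992), Pcf11 (0.990) and Mylip (0.989), and for Zfp36l2 Plagl2 (0.993), Jade2 (0.988) and Runx1 (0.988). Pum2 was followed by Apex1 (0.991), Mtpap (0.989) and Cox10 (0.986), and Tia1 by Arpp19 (0.993), Ldah (0.985) and Gpn3 (0.984). For Elavl1 they were H2az2 (0.992), Mgp (0.989) and Ndc1 (0.987). The nearest were less close for Khsrp, with Sf3b6 (0.975), Mrps10 (0.959) and Abhd17a (0.958), and for Tial1, with Tbc1d19 (0.971), Sec63 (0.955) and Dpy30 (0.950). The lists for the 7 genes had no gene in common.

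The counts of the gene lists that follow are to be read against the shares of all tested genes called: 35.6% higher and 32.8% lower at 5 h, 24% and 31% under Mbnl1 siRNA and 10.5% and 8.67% under Cugbp1 siRNA. With the second scaling these shares were 2.37% and 55.5%, 20.1% and 25.4%, and 6.28% and 4.43%. The first list held textbook mRNAs with AU-rich elements. Like the other lists it was chosen with earlier results of these data known, so its counts are no independent test. Of 20 tested textbook mRNAs with AU-rich elements, 16 were lower and 0 higher at 5 h, at a median of −0.85 against 0.04 for all genes, and 15 were lower at 2.5 h; with the second scaling 20 and 16 were lower. Dusp1, a phosphatase that switches off p38, fell by 3.45 ± 0.08 (limma adjusted p = 8.06e-08) and Myc by 2.37 ± 0.10 (adjusted p = 6.8e-07). Between 2.5 and 5 h the early response factor Egr1 was higher (0.56 ± 0.07, adjusted p = 0.00106) and Myod1 lower (−0.43 ± 0.05, adjusted p = 0.00119). Under Mbnl1 siRNA 7 of the 20 were higher, led by the kinase Plk3 (1.62 ± 0.15) and the prostaglandin synthase Ptgs2 (1.42 ± 0.05), and 7 lower (7 and 6 with the second scaling). Under Cugbp1 siRNA 2 were higher, with Ptgs2 at 0.68 ± 0.05, and 4 lower, with the protease Plau at −0.51 ± 0.05, in both scalings.

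A further list held 19 tested genes for RNA-binding and related proteins, not all of AU-rich or Pumilio type. Of these 5 were higher and 4 lower at 5 h as deposited, and 0 higher and 13 lower with equal ribosomal protein medians. The uridylyltransferase Tut1 (−1.61 ± 0.13) and Rbm38, an RNA-binding p53 target (−0.64 ± 0.04), fell most. Under Mbnl1 siRNA 4 were higher, led by the cytoplasmic polyadenylation factor Cpeb4 (0.84 ± 0.06), and 7 lower, led by Fubp1, a relative of Khsrp (−0.54 ± 0.04), and 5 were higher and 5 lower with the second scaling. Under Cugbp1 siRNA 3 were lower, led by Nanos1, a partner of Pumilio proteins (−0.52 ± 0.05), and Cpeb2 (−0.34 ± 0.05), and 0 higher (2 and 0 with the second scaling). Cpeb2 was higher under Mbnl1 than under Cugbp1 siRNA (0.74 ± 0.05, limma adjusted p = 1.56e-05).

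Zfp36 proteins, Khsrp and Pum2 bring deadenylases or the exosome to an mRNA. A list of 17 genes held those of CCR4-NOT and other deadenylases, and also Tnrc6a, Tnrc6b and Tnrc6c, which encode no deadenylases. Of these 17 genes 10 were lower and 3 higher at 5 h (median −0.22). With equal ribosomal protein medians 14 were lower and 0 higher. The subunit Cnot2 was at −0.79 ± 0.05 and the ubiquitin ligase Cnot4 at −0.77 ± 0.06 (limma adjusted p of 1.14e-05 or less). Under Mbnl1 siRNA 9 were lower and 1 higher (median −0.16; 6 and 0 with the second scaling), with Tnrc6b at −0.34 ± 0.05 and Cnot2 at −0.30 ± 0.05, and under Cugbp1 siRNA 2 were lower (Pan2 and Tnrc6b) and 0 higher. With the second scaling Pan2 remained called there and Tnrc6b was not (adjusted p = 0.178). A list of 14 genes covered the RNA exosome, the nuclease complex that degrades RNA from its 3′ end. The list also held the exosome cofactors Skiv2l, Ttc37, Wdr61 and Mtrex. Of these 14 genes 5 were lower and 4 higher at 5 h, and 9 lower and 0 higher with the second scaling. Exosc4 was at −0.70 ± 0.05 and Exosc3 at −0.64 ± 0.04. Under Mbnl1 siRNA 7 genes of this list were lower and 2 higher (7 and 1 with the second scaling), with Exosc5 at −0.74 ± 0.05 and Exosc8 at −0.63 ± 0.05. Under Cugbp1 siRNA 4 were higher and 0 lower as deposited, led by Exosc5 (0.23 ± 0.05, adjusted p = 0.0224), and 1 was higher with equal ribosomal protein medians.

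The p38 and MK2 kinases phosphorylate Zfp36 proteins, which then bind 14-3-3 proteins. Of 14 tested genes of this group 7 were higher and 6 lower at 5 h, and 0 higher and 7 lower with equal ribosomal protein medians; Dusp1, which is in this list too, fell most, and the p38 kinase gene Mapk11 was at 0.39 ± 0.06 (0.16 with the second scaling). Under Mbnl1 siRNA 7 were lower, led by the p38 kinase genes Mapk12 (−0.79 ± 0.05) and Mapk11 (−0.75 ± 0.06), and 2 higher (6 and 0 with the second scaling). Under Cugbp1 siRNA 3 were lower, led by Dusp1 (−0.30 ± 0.07), and 0 higher, and 1 was lower with the second scaling. Of 12 stress granule partners of Tia1, 3 were lower and 0 higher at 5 h, with the deubiquitinase Usp10 at −0.88 ± 0.05, and 11 were lower with the second scaling. Under Mbnl1 siRNA 3 of them were lower, led by the granule nucleator G3bp1 (−0.47 ± 0.04) and Usp10 (−0.36 ± 0.05), and 1 was higher (2 and 1 with the second scaling). Under Cugbp1 siRNA Fmr1 alone among the 12 was called, in both scalings (0.29 ± 0.04 as deposited).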

How the data were processed

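Total RNA of the 9 C2C12 samples was biotin-labelled and read on whole-transcript Affymetrix arrays, per the labels' protocols. Per the submitters' processing notes the authors made the values with RMA in Affymetrix Expression Console (versions and annotation: not given in the sources used here). Judged by their range, the deposited RMA intensity values are linear, and log2 was taken here. Of 35556 probe sets 21789 had 1 symbol, 1621 several and 12146 none; only the first were named. Genes below the filter described above were left out, and of several probe sets of a gene the brightest was used.

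Levels and times were tested with limma 3.58.1 (lmFit, eBayes) in R 4.3.3 on siRNA and time as factors (4 residual degrees of freedom). Decay was tested with an added hourly slope for each knockdown (2 residual degrees of freedom). P-values were adjusted by Benjamini-Hochberg over 9864 genes, and a gene was called under 0.05; 8 comparisons were made. The fits were tested on simulated data.

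The alternatives were equal ribosomal protein medians (array shifts of −0.14 to 0.167), no filter (19938 genes), a stricter filter (75th percentile, 4884 genes), the mean of a gene's probe sets, an intensity trend in the variance prior and leaving out each array in turn. For Zfp36 the first 2 were also joined, a choice made after seeing the data. The 8 genes and the 8 gene lists, myoblast and other cell type markers included, were chosen with earlier results of these data known. The text names the 8 genes, the 2 siRNA targets, genes from among the 2 with the largest called change in each list and comparison, and for each tested gene the 3 with the most similar levels. The RefSeq promoter table held 7 of the 8 genes, with 10 windows.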

Additional observations from a re-analysis of the deposited data

How the results depend on the processing

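With equal ribosomal protein medians the number of tested members called higher went to 0 at 5 h, 0 at 2.5 h and 0 under Cugbp1 siRNA, and the number called lower to 1 under Mbnl1 siRNA, 2 under Mbnl1 against Cugbp1 siRNA and 1 for the decay under Mbnl1 siRNA. That scaling turned the sign at 5 h of Elavl1 (−0.115), Khsrp (−0.068) and Tial1 (−0.033), at 2.5 h of Elavl1 (−0.046) and Khsrp (−0.014), and from 2.5 to 5 h of Elavl1 (−0.069), Khsrp (−0.055), Tia1 (−0.025) and Tial1 (−0.081). It also turned decay differences that were called in neither scaling, those of Elavl1 (−0.004), Khsrp (−0.008) and Pum2 (−0.004) under Cugbp1 siRNA and of Zfp36l1 (−0.017), Elavl1 (−0.009), Khsrp (−0.017) and Tia1 (−0.021) under Mbnl1 siRNA. Without the intensity filter 1 was lower from 2.5 to 5 h, 0 higher under Cugbp1 siRNA, 2 higher and 1 lower under Mbnl1 siRNA and 2 higher under Mbnl1 against Cugbp1 siRNA. Zfp36 joins that fit. With the stricter filter Zfp36l1 is not tested. There 2 were higher at 2.5 h and 1 lower under Cugbp1 siRNA, beside 1789 and 691 of all 4884 genes. The number higher was 0 under Mbnl1 siRNA and 0 under Mbnl1 against Cugbp1 siRNA, beside 1436 and 1340 genes. With the intensity trend 2 were higher and 3 lower at 2.5 h, beside 2598 and 2445 of all 9864 genes. Under Cugbp1 siRNA 1 was lower, beside 990 genes. For the decay under Mbnl1 siRNA 1 was lower, with the count of all genes in the next paragraph. The mean of probe sets changed no member count. Leaving out 1 array in turn gave 2 to 4 higher at 5 h, beside 2979 to 3419 of all tested genes. It gave 1 to 2 higher at 2.5 h and 1 to 2 lower from 2.5 to 5 h. Under Cugbp1 siRNA it gave 0 to 1 higher and 0 to 1 lower. For these the counts of all genes are in the next paragraph. The number lower was 1 to 2 under Mbnl1 siRNA, beside 2548 to 3086 of all tested genes. Under Mbnl1 against Cugbp1 siRNA it was 3 to 4, beside 2658 to 3242. The other member counts did not move. The cause of these moves was not tested, other than the set of genes or arrays that a filter or left-out array changes.

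Among all tested genes the higher and lower counts at 5 h were 3514 and 3232 as deposited and 234 and 5479 with equal ribosomal protein medians. At 2.5 h they were 2283 and 2391 against 147 and 3135, and from 2.5 to 5 h 441 and 1672 against 7 and 3120 (89 and 1052 without the filter, 664 higher with the trend). Under Cugbp1 siRNA 1039 and 855 became 619 and 437, or 513 and 456 without the filter. For the decay under Mbnl1 siRNA 0 and 2 became 20 and 293, 17 and 65 with the stricter filter, 3 and 18 with the mean of probe sets and 44 and 148 with the trend. Leaving out 1 array gave 1228 to 2358 higher at 2.5 h, 85 to 482 higher and 934 to 1846 lower from 2.5 to 5 h, 371 to 1113 higher and 371 to 914 lower under Cugbp1 siRNA, and 0 to 52 higher and 0 to 151 lower for the decay under Mbnl1 siRNA. No paired analysis was possible because each siRNA and time had 1 array and the labels carry no replicate numbers; time and siRNA, the factors that arrays share, are already in the model.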
